A study of Homo sapiens with 12 samples.

Results

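Untreated HK-2 cells were compared with themselves 1 day apart: 3 vehicle arrays at 24 h and 3 at 48 h, which are 6 of the 12 arrays of a study of low-dose Kbr, the agent as its label spells it. HK-2 is a line of immortalised human renal proximal tubular epithelial cells, and all groups here come from that one line. All cells were seeded in 6-well plates 24 h before treatment, reached about 90% confluency by the start of treatment, and were then kept for 24 or 48 h with vehicle (the 6 arrays described here) or with Kbr (3 arrays at each time, used for comparison). The medium of all groups was a mixture of DMEM and Ham's F12 with glucose at 5 mM, insulin and transferrin at 5 µg/ml each, hydrocortisone at 36 ng/ml, EGF at 10 ng/ml and selenite at 5 ng/ml, per the labels' protocols. The study looked for expression patterns of kidney toxicity, in which the vehicle arrays served as controls. The labels name neither the vehicle nor any change of medium between the time points. Vehicle arrays were matched by biological replicate number, 1 to 3, and each of 10665 genes was followed through the probe set with the highest mean.

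Epithelial cells that fill their dish usually slow their division, since contact with neighbours and a falling supply of free surface and growth factor restrain entry into the cell cycle. Genes for DNA replication and mitosis are transcribed mainly in cycling cells, held back by the DREAM repressor complex in resting cells, and inhibitors of cyclin-dependent kinases, such as p27, accumulate in them. Confluent proximal tubule cells can also take on a more tubular character, with transporters in apical and basolateral membranes, a basement membrane below and fewer of the cytoskeletal and matrix-degrading products of migrating cells.

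The deposited values are log2 intensities after GCRMA, an array normalisation that subtracts a sequence-based background, and every level or change below is on that log2 scale unless a fold is given. The 12 arrays had medians of 2.91 to 2.99 and between 39.95% and 40.4% of their 54675 probe sets above 4, the floor used here to call a gene measurable. Within the vehicle groups the arrays correlated at 0.9874 to 0.9902 over the 10665 tested genes. The Kbr arrays, whose spread enters the same fit, correlated at 0.9914 to 0.9928 at 24 h and 0.982 to 0.9901 at 48 h. The pairs with Kbr 48 h replicate 3 had the lower 48 h values, 0.982 and 0.9872. Same-numbered vehicle arrays deviated together from their group means (correlations over genes of 0.531 to 0.605 in 3 pairs, against -0.35 to -0.233 in the 6 pairs of different number). The deviations of a group sum to 0 for each gene, so positive correlations in same-numbered pairs bring negative ones in the others. The first principal component of the 6 vehicle arrays held 54.35% of their variance and moved the same way in each matched pair, by 37.4, 30.5 and 34.8. In position on that component the groups did not overlap, with 24 h arrays at -12.41, -6.366 and -32.55 and 48 h arrays at 24.98, 24.12 and 2.222. The label of the cells held in part: PAX8, a transcription factor of the developing and adult kidney tubule, stood at 10.80 at 24 h, and 14 of 35 proximal tubule markers passed the floor. LRP2, CUBN, SLC34A1 and AQP1, which define the differentiated segment, stood at 2.09 to 2.90 at both times and so were not measurable.

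A day near and past confluence was accompanied by many small changes. At an adjusted p under 0.05, 984 genes rose (9.23% of those tested) and 1420 fell (13.3%), 2404 in all (22.5%). The median size of the called changes was 0.453 and 70.9% of them were under 1.5-fold. Only 87 genes rose by 2-fold or more (0.816%) and 63 fell by as much (0.591%). All 3 matched differences had 1 sign in 2402 of the 2404, and the 24 h and 48 h arrays did not overlap in 1595 of them (66.3%), against 59.2% and 26.4% of all genes. The test was limma's moderated test with the replicate number as a block, so it reads the change within matched pairs; without that term 351 genes passed (3.29%; 151 up, 200 down), all of them among the 2404. Leaving out vehicle arrays lowered the count to 1349, 1521 and 1265 (24 h replicates 1, 2 and 3) and to 1510, 1521 and 1771 (48 h replicates 1, 2 and 3). Without Kbr 48 h replicate 3, whose spread also enters the SE, the count was 2949. The labels call the replicates biological without saying what separated them, so the p-values measure the spread between these samples only.

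The largest changes were not in the cell cycle but in single genes of signalling, matrix and transport. BLNK, an adaptor protein known from B-cell receptor signalling, had values of 4.66, 4.53 and 2.63 at 24 h and 7.65, 7.98 and 7.02 at 48 h (replicates 1 to 3, as in every such series of values). It rose 12.2-fold (log2 change 3.61, SE 0.35, adjusted p = 0.000745; every SE is that of the log2 change), although its 24 h mean of 3.94 lies at the floor, where the background step sets the level. TXNIP, an arrestin-like protein that binds thioredoxin and restrains glucose uptake, fell furthest, with 9.45, 9.87 and 9.19 at 24 h and 4.67, 6.74 and 7.18 at 48 h. No 48 h array came within 2 log2 units of a 24 h array, and the fall was 9.91-fold (log2 change -3.31, SE 0.46, adjusted p = 0.00208). MMP1, the interstitial collagenase, went from a narrow range to a broad one, with 7.54, 7.43 and 7.65 at 24 h and 2.99, 4.82 and 5.46 at 48 h, and was 8.69-fold lower (log2 change -3.12, SE 0.47, adjusted p = 0.00285). SLN, which encodes sarcolipin, an inhibitor of the calcium pump of the endoplasmic reticulum, was 8.51-fold lower and GAL, the neuropeptide galanin, 4.58-fold lower.

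**Figure D1:**
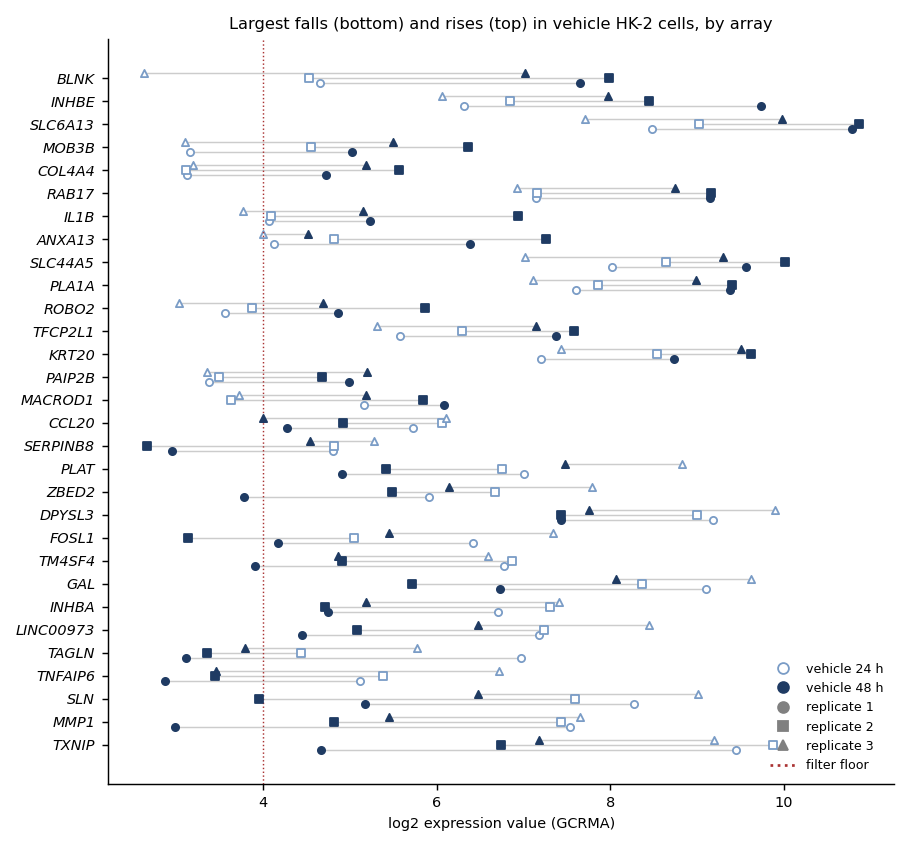
Log2 expression (horizontal axis) of the 15 genes with the largest rises (top) and the 15 with the largest falls (bottom) in vehicle cells; open symbols are 24 h arrays, filled symbols 48 h arrays, shapes mark replicates 1 to 3, grey lines join matched arrays and the dotted line is the floor of 4. In 26 of the 30 genes the filled and open symbols occupy separate ranges, and in TXNIP the arrays at 24 h lie at 9.19 to 9.87 and those at 48 h at 4.67 to 7.18.

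Of these 30 genes, 26 had ranges that did not overlap between the times, 19 also passed without the replicate term, and 9 had a mean below the floor of 4 in one of the groups, which makes the size of their change depend on the background step. Among the rises, INHBE, a subunit of activin, had 6.32, 6.85 and 6.07 at 24 h and 9.74, 8.44 and 7.98 at 48 h. Its relative INHBA, the subunit of activin A, moved the other way, with 6.71, 7.30 and 7.42 at 24 h and 4.75, 4.72 and 5.19 at 48 h. The 2 activin subunits thus changed by 2.31 (SE 0.36, adjusted p = 0.00349) and -2.26 (SE 0.29, adjusted p = 0.00158), each without overlap between the times. SLC6A13, a renal and hepatic transporter of GABA and taurine, rose by 2.14, and the choline transporter-like SLC44A5 by 1.74. RAB17, a small GTPase of polarised trafficking in epithelia, had 7.15, 7.16 and 6.93 at 24 h and 9.15, 9.16 and 8.75 at 48 h, a rise of 1.94 (SE 0.11, adjusted p = 0.000287). ANXA13, an annexin of epithelial membranes, rose by 1.74 and TFCP2L1, a transcription factor of kidney epithelium, by 1.64. Among the falls, TAGLN, an actin-binding protein of contractile cells, changed by -2.31, TNFAIP6, a hyaluronan-binding protein, by -2.48 (both to 48 h means below the floor), DPYSL3, a cytoskeletal regulator, by -1.81, and FOSL1, an AP-1 transcription factor, by -2.01. CCL20, a chemokine, fell by 1.57. ANXA13 missed the threshold without vehicle 24 h replicate 1 or 2 or vehicle 48 h replicate 1 or 2 (adjusted p 0.0546 to 0.0721). CCL20 missed the threshold without vehicle 24 h replicate 1, 2 or 3, vehicle 48 h replicate 1, 2 or 3, Kbr 24 h replicate 1, 2 or 3 or Kbr 48 h replicate 2 (adjusted p 0.0516 to 0.193).

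Genes of mitosis fell as a block. All 35 tested members of a list of G2 and mitosis genes fell (background 13.3%), with a median of -0.63 against -0.02 over all genes, a lowest value of -0.94 and a highest of -0.26. CCNA2, cyclin A2 of S phase and mitosis, had 10.97, 11.06 and 11.34 at 24 h and 10.03, 10.18 and 10.50 at 48 h, and fell 1.85-fold (log2 change -0.89, SE 0.07, adjusted p = 0.000397). CCNB1, cyclin B1 of mitotic entry, had 12.49, 12.57 and 12.85 at 24 h and 11.62, 11.94 and 12.06 at 48 h, and fell 1.7-fold (log2 change -0.77, SE 0.09, adjusted p = 0.00127). For both cyclins every 48 h array was below every 24 h array, as for 34 of the 35. MKI67, the proliferation marker Ki-67, had 11.51, 11.70 and 11.94 at 24 h and 10.95, 11.07 and 11.22 at 48 h, a fall of 0.64 (SE 0.07, adjusted p = 0.000839). UBE2C, the ubiquitin-conjugating enzyme of the anaphase-promoting complex, fell by 0.67, the spindle kinase AURKA by 0.70 and the kinetochore motor CENPE by 0.79. The levels stayed high: at 48 h MKI67 still stood at 10.95 or more on every array and CCNB1 at 11.62 or more. The count of falls was 28 to 35 in the fits that left out 1 of the 12 arrays, and 21 without the replicate term.

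**Figure D2:**
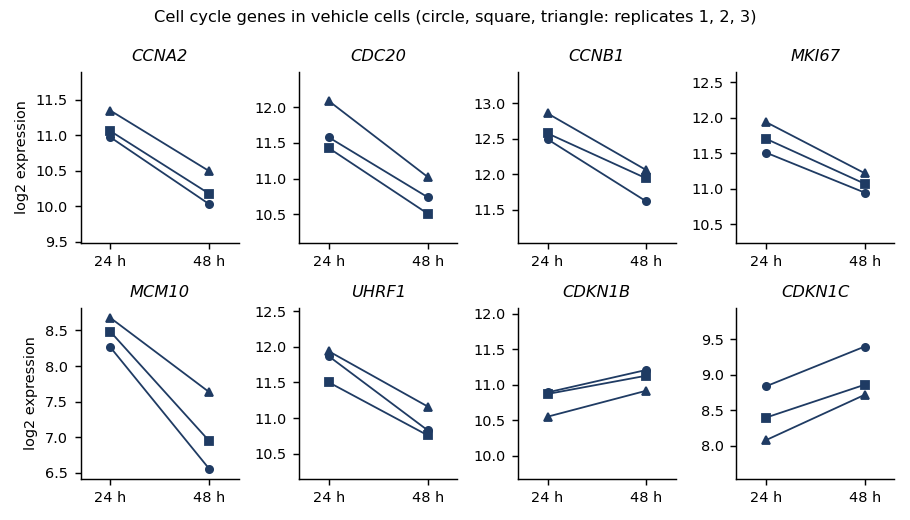
Log2 expression in the vehicle arrays at 24 and 48 h for 4 mitosis genes, 2 replication genes and 2 inhibitors of cyclin-dependent kinases; lines join matched arrays and all panels span the same range. Each of the 3 lines falls in CCNA2, CDC20, CCNB1, MKI67, MCM10 and UHRF1, and each rises in CDKN1B and CDKN1C.

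Promoters of the mitosis genes share sequence elements known for this class of genes, so their share describes the list and not its change over time. Known elements of mitotic promoters are the cell cycle homology region, with the core TTTGAA, through which DREAM acts, and the CCAAT box, which binds NF-Y. In the 250 bases before the start of transcription (RefSeq, build GRCh38.p14), read on both strands, TTTGAA was present in 16 of 30 mitosis promoters (53.3%), against 13.6% of all 27305 promoters and 8.34% of those of tested genes. CCAAT was present in 23 of 30 (76.7%), against 33% of all promoters and 35.8% of those of tested genes. The replication list differed, with TTTGAA in 1 of 31 promoters (3.23%) and CCAAT in 18 of 31 (58.1%). A match is a stretch of letters and not a measured site. No other element linked to DREAM was searched, and whether DREAM acted on either list was not tested. MKI67 and CCNB1 are shown because they stand for proliferation here whatever their values, and CDC20, the activator of the anaphase-promoting complex, and CCNA2 because they had the largest falls on the list; CDC20 (-0.94) was chosen after its values were seen. Each sequence runs 5′ to 3′ toward the gene, with the matches of both motifs, on either strand, in capitals.
CDC20 (chr1:43358731-43358980, plus strand): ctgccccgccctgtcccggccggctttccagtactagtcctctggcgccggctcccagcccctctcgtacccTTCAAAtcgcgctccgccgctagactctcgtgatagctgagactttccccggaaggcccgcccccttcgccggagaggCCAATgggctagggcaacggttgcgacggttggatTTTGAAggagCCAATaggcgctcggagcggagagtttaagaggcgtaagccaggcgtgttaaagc
CCNA2 (chr4:121823884-121824133, minus strand): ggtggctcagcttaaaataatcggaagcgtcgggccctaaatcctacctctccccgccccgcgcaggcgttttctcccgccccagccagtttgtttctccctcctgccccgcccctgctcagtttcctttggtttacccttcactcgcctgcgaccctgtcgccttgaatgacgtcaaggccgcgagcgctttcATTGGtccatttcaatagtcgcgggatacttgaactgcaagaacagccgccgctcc
MKI67 (chr10:128126424-128126673, minus strand): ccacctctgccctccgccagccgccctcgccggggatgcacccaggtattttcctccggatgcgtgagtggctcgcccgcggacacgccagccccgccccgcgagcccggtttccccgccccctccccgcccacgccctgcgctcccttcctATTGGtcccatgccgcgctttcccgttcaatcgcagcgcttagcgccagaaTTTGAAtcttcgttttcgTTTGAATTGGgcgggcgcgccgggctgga
CCNB1 (chr5:69166900-69167149, plus strand): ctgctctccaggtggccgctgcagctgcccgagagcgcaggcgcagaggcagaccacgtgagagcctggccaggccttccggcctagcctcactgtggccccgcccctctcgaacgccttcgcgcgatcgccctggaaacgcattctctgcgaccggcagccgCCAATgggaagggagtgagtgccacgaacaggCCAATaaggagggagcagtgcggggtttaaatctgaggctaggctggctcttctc
CDC20 and MKI67 carried 2 matches of each element, with 1 TTTGAA and 1 CCAAT complement of MKI67 sharing a base. CCNB1 carried 2 CCAAT matches and CCNA2 1, and neither had an exact TTTGAA in this window.

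Most of the DNA replication genes tested fell. Of 34 tested members, 21 fell (background 13.3%) and 0 rose (limma; 0 higher at an unadjusted p under 0.05), with a median of -0.43 and 32 of 34 changes negative. MCM10, which helps start replication forks, had 8.26, 8.48 and 8.68 at 24 h and 6.56, 6.95 and 7.63 at 48 h, the largest fall of the list (SE 0.17, adjusted p = 0.00123). CDC25A, the phosphatase that switches on cyclin-dependent kinases at S phase entry, fell by 0.84, the origin recognition subunit ORC6 by 0.61, and UHRF1, which carries DNA methylation through replication, by 0.85. H2AX, a histone variant that marks DNA breaks when phosphorylated, fell by 0.66 (SE 0.08, adjusted p = 0.00157), the only fall among the 7 histone genes tested. Falls in the replication list numbered 12 without vehicle 24 h replicate 1, and 14 to 22 without any other single array, and 10 without the replicate term.

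Inhibitors of the cycle and genes linked to FOXO factors and quiescence moved up in part. Of 21 tested, 7 rose (background 9.23%) and 1, TXNIP, fell, with a median of 0.25. CDKN1C, the inhibitor p57, had 8.84, 8.40 and 8.08 at 24 h and 9.39, 8.86 and 8.72 at 48 h, a rise of 0.55 (SE 0.07, adjusted p = 0.00136). The ranges overlapped, in that the highest 24 h array (replicate 1) stood above the lowest 48 h array (replicate 3), while each matched pair rose. CDKN1B, the inhibitor p27, rose by 0.31 (SE 0.08, adjusted p = 0.0266), FOXO3, a transcription factor active when insulin signalling is low, by 0.41, and MXI1, an antagonist of MYC at its binding sites, by 0.48. CDKN1A, the p53-induced inhibitor p21, did not pass (-0.22, SE 0.14, adjusted p = 0.307). Of 21 p53 targets 3 rose and 4 fell (background 9.23% and 13.3%), with a median of 0.02, and no more than 1 rise was left without vehicle 24 h replicate 1 or 3 or 48 h replicate 1 or 3. Among them CCNG1, cyclin G1, rose by 0.47 and TIGAR, a regulator of glycolysis, fell by 0.50. The 7 rises became 3 without vehicle 24 h replicate 1 or vehicle 48 h replicate 2 or 3, 4 without vehicle 24 h replicate 3, and 5 to 9 without any other single array, and 0 without the replicate term, where 6 had an unadjusted p under 0.05. CDKN1B missed the threshold without vehicle 24 h replicate 1 or 3 or vehicle 48 h replicate 2 or 3 (adjusted p 0.0745 to 0.113).

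TXNIP is the exception on that list, and its promoter is shown because the gene is a known target of the glucose-sensing factors MondoA and ChREBP. These factors bind elements that contain CACGAG, which occurs in 5.65% of all promoters and 7.39% of those of tested genes in the same window. TXNIP carried 2, which stand in capitals below with its 2 CCAAT matches.
TXNIP (chr1:145996580-145996829, minus strand): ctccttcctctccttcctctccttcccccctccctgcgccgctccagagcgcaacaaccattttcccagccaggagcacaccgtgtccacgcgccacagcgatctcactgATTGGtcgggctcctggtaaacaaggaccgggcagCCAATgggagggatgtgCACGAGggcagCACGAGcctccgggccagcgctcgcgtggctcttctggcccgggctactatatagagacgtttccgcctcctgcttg
Related genes did not share the size of its change: of 21 glycolysis genes 2 rose and 2 fell (background 9.23% and 13.3%), with a median of -0.03. SLC2A1, the glucose transporter GLUT1, had 7.33, 7.33 and 7.68 at 24 h and 6.72, 6.67 and 7.13 at 48 h, and fell by 0.61 (SE 0.13, adjusted p = 0.0131). PFKFB3, which makes the allosteric activator of glycolysis, rose by 0.45, and PKM, pyruvate kinase, fell by 0.34. SLC2A1 missed the threshold without vehicle 24 h replicate 3 or vehicle 48 h replicate 1 or 2 (adjusted p 0.0529 to 0.0624). PFKFB3 missed the threshold without vehicle 24 h replicate 3 or vehicle 48 h replicate 2 (adjusted p 0.052 to 0.0604). PKM missed the threshold without vehicle 24 h replicate 1 or 3 or vehicle 48 h replicate 2 (adjusted p 0.0502 to 0.0654).

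Genes of ribosome production and of the proteasome also moved down. Of 28 ribosome biogenesis and MYC-linked genes 13 fell and 1 rose (background 13.3% and 9.23%), with a median of -0.29. BYSL, needed to assemble the small ribosomal subunit, had 8.99, 8.61 and 9.20 at 24 h and 8.42, 8.09 and 8.71 at 48 h, a fall of 0.52 (SE 0.09, adjusted p = 0.00557). LYAR, a nucleolar growth regulator, fell by 0.52 and SRM, spermidine synthase, by 0.54. The gene that rose was MYC itself, which drives this programme: its values were 12.66, 12.24 and 12.28 at 24 h and 13.10, 12.66 and 12.70 at 48 h, a rise of 0.43 (SE 0.10, adjusted p = 0.0169). Ribosomal proteins, by contrast, had a median of 0.03 and 1 call in 26. Of 27 proteasome subunits 16 fell (background 13.3%), all 27 changes were negative, and the median was -0.29. PSMD12 and PSMD3, subunits of the regulatory particle, fell by 0.69 (SE 0.10, adjusted p = 0.00311) and 0.50 (SE 0.08, adjusted p = 0.00397). Falls on the ribosome biogenesis list numbered 6 without vehicle 24 h replicate 3, 7 without vehicle 48 h replicate 1 or 2, 8 without vehicle 24 h replicate 2 or vehicle 48 h replicate 3, and 10 to 15 without any other single array, and 0 without the replicate term, where 10 had an unadjusted p under 0.05. Those of the proteasome list numbered 10 without vehicle 24 h replicate 1 or 2 or vehicle 48 h replicate 1, and 11 to 17 without any other single array, and 0 without the replicate term, where 11 had an unadjusted p under 0.05. MYC missed the threshold without vehicle 24 h replicate 2 or 3 or vehicle 48 h replicate 1 (adjusted p 0.0658 to 0.0699).

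**Figure D3:**
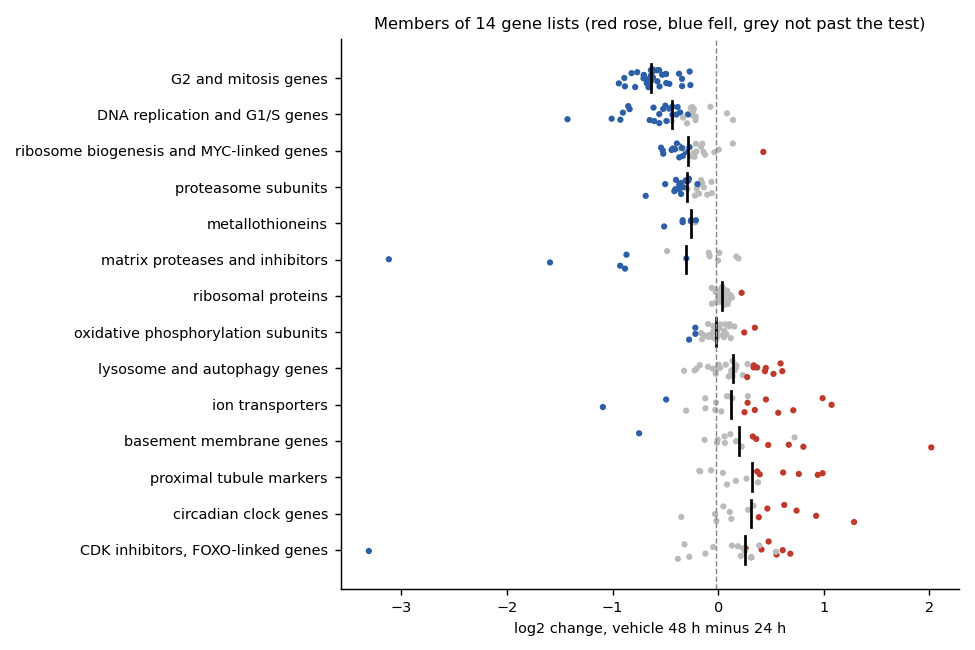
Log2 change of vehicle cells from 24 to 48 h (horizontal axis) for every tested member of 14 gene lists; red points rose and blue points fell at an adjusted p under 0.05, grey points did not pass, black bars are list medians and the dashed line is the median of all 10665 genes (-0.02). The mitosis points lie wholly to the left of the dashed line, the proteasome points are all negative, and the clock, proximal tubule and lysosome lists hold red points and no blue one.

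Several products of migrating and contractile cells fell, among them MMP1, PLAT, THBS1 and TAGLN. Of 13 matrix proteases, activators and inhibitors, 6 fell (background 13.3%) and 0 rose (limma; 0 higher at an unadjusted p under 0.05), with a median of -0.30. Beside MMP1, PLAT, the tissue plasminogen activator, had 7.01, 6.75 and 8.82 at 24 h and 4.91, 5.42 and 7.48 at 48 h, and fell 3.02-fold (log2 change -1.59, SE 0.16, adjusted p = 0.000775). Its 24 h and 48 h ranges overlapped, with replicate 3 the highest at both times, and each matched pair fell. PLAUR, the urokinase receptor, fell by 0.88 (SE 0.08, adjusted p = 0.000503) and SERPINE2, a protease inhibitor of the cell surface, by 0.87. Among 19 interstitial matrix genes 3 fell, a share near that of all genes (13.3%): THBS1 (thrombospondin 1, -1.48), TGFBI (-1.15) and the collagen COL1A1 (-0.74). Of 9 mesenchymal genes 3 fell, TAGLN, the tropomyosin TPM1 (-0.46) and VIM, vimentin, with 14.44, 14.22 and 14.50 at 24 h and 14.11, 13.87 and 14.13 at 48 h (-0.35, SE 0.06, adjusted p = 0.00429). The list as a whole did not move: its median was -0.03, against -0.02 over all genes. In 4 of its members the change was positive, up to 0.49, and 0 were called higher. Of 10 integrin subunits 1 rose and 2 fell, ITGA5 and ITGA3, by 0.64 and 0.55, and CD44, the hyaluronan receptor, by 0.71. Falls on the protease list numbered 4 to 7 in the fits that left out 1 of the 12 arrays, and 2 without the replicate term.

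TGF-beta, which drives matrix production and loss of epithelial character, had a mixed target list. Of 16 genes 3 rose and 5 fell, and the median of -0.02 changed sign with the scaling of the arrays. Whichever vehicle array was left out, the rises numbered 0 or 1 and the falls 2 or 3, and without the replicate term 0 (1 at an unadjusted p under 0.05) and 2. PMEPA1, a feedback inhibitor of SMAD signalling, had 9.15, 8.92 and 9.37 at 24 h and 8.21, 8.13 and 8.26 at 48 h, and fell by 0.94 (SE 0.11, adjusted p = 0.00124). YAP and TEAD targets, which respond to cell density, had 1 rise and 2 falls in 19, against 22.5% called over all genes. CCN1 and CCN2, the matrix proteins most used to read YAP activity, did not pass, at -0.44 (SE 0.17, adjusted p = 0.0921) and -0.22 (SE 0.16, adjusted p = 0.348). MYOF, a membrane repair protein on the same list, rose by 0.34 (SE 0.07, adjusted p = 0.00942).

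Genes of the basement membrane, the sheet below an epithelium, included more rises than falls. Of 16 tested, 6 rose (background 9.23%) and 1 fell, with a median of 0.20. COL4A4, a chain of the collagen IV network of the kidney, had 3.13, 3.12 and 3.19 at 24 h and 4.73, 5.57 and 5.19 at 48 h. It crossed from below to above the floor in every pair. Since it entered the test only through the 48 h vehicle arrays and its 24 h values are background, the size of its rise is not interpretable. Its call is among the 6 rises, so that count holds a member that the filter favoured. The laminin chains LAMA1 and LAMB1 rose by 0.67 (SE 0.07, adjusted p = 0.000798) and 0.47 (SE 0.09, adjusted p = 0.00795). COL7A1, the anchoring fibril collagen, fell by 0.75 (SE 0.14, adjusted p = 0.00764). Rises numbered 3 without vehicle 24 h replicate 3 or vehicle 48 h replicate 2, and 4 to 7 without any other single array, and 2 without the replicate term.

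Of the cell junction lists none held a larger share of calls than all genes (22.5%). Of 23 tight junction genes 2 rose and 0 fell, of 15 cadherins, catenins and nectins 2 rose and 1 fell, and of 11 desmosome genes 1 rose. CDH1, the epithelial cadherin, had 6.86, 7.00 and 7.40 at 24 h and 7.01, 7.23 and 7.71 at 48 h, and its change of 0.23 did not pass (SE 0.33, adjusted p = 0.653). Each matched pair of CDH1 rose, and that SE was estimated over the vehicle and Kbr arrays together. CLDN2, the pore-forming claudin of the proximal tubule, did not pass either: its change (0.00427, SE 0.22) was near 0 and turned sign when array medians were subtracted. PKP4, a catenin of junction plaques, rose by 0.60 (SE 0.07, adjusted p = 0.0014). Of 7 keratins 1 rose and 2 fell (background 9.23% and 13.3%), with a median of -0.37 and 6 negative changes. The only positive change was that of KRT20, a keratin of differentiated epithelia. It had 7.20, 8.54 and 7.43 at 24 h and 8.74, 9.63 and 9.51 at 48 h, a rise of 1.57 (SE 0.26, adjusted p = 0.0041). KRT8 and KRT18, the paired keratins of simple epithelium, fell by 0.51 (SE 0.09, adjusted p = 0.00683) and 0.52 (SE 0.11, adjusted p = 0.0104). MUC1, an apical mucin, had 9.83, 10.01 and 9.77 at 24 h and 10.70, 10.69 and 10.87 at 48 h, and rose by 0.89 (SE 0.10, adjusted p = 0.000839) without overlap between the times. RNF43, a ubiquitin ligase that limits Wnt signalling, rose by 0.57.

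A part of the ion transporters rose. Of 20 genes for sodium, potassium, chloride and bicarbonate transport 8 rose (background 9.23%), 2 fell and 10 did not pass, with a median of 0.12. FXYD2, the gamma subunit of the sodium pump in the kidney, had 13.02, 12.90 and 12.46 at 24 h and 14.19, 13.87 and 13.54 at 48 h, a rise of 1.07 (SE 0.09, adjusted p = 0.000397). SLC4A4, the basolateral bicarbonate cotransporter of the proximal tubule, had 11.51, 11.82 and 10.78 at 24 h and 12.46, 12.70 and 11.92 at 48 h, a rise of 0.99 (SE 0.09, adjusted p = 0.000477). In both genes all 48 h arrays stood above all 24 h arrays. CLCN4, a chloride-proton exchanger of endosomes, rose by 0.71, whereas the calcium-activated potassium channel KCNN4 fell by 1.09 (SE 0.15, adjusted p = 0.00208). Rises numbered 3 without vehicle 24 h replicate 3, 4 without vehicle 24 h replicate 2, 5 without vehicle 24 h replicate 1 or vehicle 48 h replicate 1, and 6 to 8 without any other single array, and 1 without the replicate term.

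Of 35 proximal tubule markers on the array 14 passed the floor, and of those 6 rose and 0 fell; since a marker could pass through the group where it was high, this count describes the measurable members only. SLC3A1, a subunit of the cystine and dibasic amino acid transporter, had 8.87, 8.59 and 7.99 at 24 h and 9.85, 9.56 and 8.87 at 48 h, a rise of 0.94 (SE 0.17, adjusted p = 0.00597). ENPEP, the brush border peptidase that cleaves angiotensin, rose by 0.76 (SE 0.09, adjusted p = 0.00138) and MIOX, which starts the breakdown of inositol in the kidney cortex, by 0.61 (SE 0.11, adjusted p = 0.00535). The ranges of the 24 h and 48 h arrays overlapped in 13 of the 14 markers. The 21 markers below the floor included the endocytic receptors LRP2 and CUBN, and all 21 had means under 4 at both times. On the log2 scale the summed signal of all 35 markers was 14.06 to 14.5 at 24 h and 14.41 to 14.82 at 48 h. The 6 rises became 4 to 6 in the fits that left out 1 of the 12 arrays, and 0 without the replicate term, where 3 had an unadjusted p under 0.05.

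Markers of other cells differed by type. None of 8 leukocyte markers passed the floor, and their summed signal was 5.44 to 5.50 at 24 h and 5.47 to 5.50 at 48 h. Of 8 endothelial markers 2 passed, with no call in either direction. Fibroblast markers gave clear signal in part: of 8, 3 passed, the matrix proteoglycans DCN and LUM at 12.28 and 10.48 at 24 h and COL1A1, which fell, while COL1A2, COL3A1, PDGFRA, PDGFRB and THY1 stood below 3. The summed signal of the 8 listed markers was 12.47 to 12.99 at 24 h and 12.39 to 12.47 at 48 h. Its part in the falls of matrix and mesenchymal genes was not tested. Of 20 markers of other nephron segments 4 passed and none was called with limma (0 and 1 lower and higher at an unadjusted p under 0.05); the sodium channel subunit SCNN1A, one of them, stood at 9.32 at 48 h. Whether a change reflects the share of cells or the RNA per cell cannot be told apart in bulk arrays.

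Growth factor signalling genes were called in both directions. Of 23 immediate early and MAPK feedback genes 4 rose and 5 fell (background 9.23% and 13.3%). The rises numbered 1 without vehicle 24 h replicate 2 or 3 or vehicle 48 h replicate 1, 2 without vehicle 48 h replicate 2 or 3, and 3 to 4 without any other single array, and the falls 3 without vehicle 24 h replicate 1, 2 or 3, vehicle 48 h replicate 1 or 2, Kbr 24 h replicate 2 or Kbr 48 h replicate 2, 8 without Kbr 48 h replicate 3, and 4 to 5 without any other single array. SPRY1, a feedback inhibitor of receptor tyrosine kinases, had 5.97, 5.30 and 4.24 at 24 h and 7.36, 6.49 and 6.18 at 48 h, a rise of 1.51 (SE 0.26, adjusted p = 0.00499). FOSL1 had 6.42, 5.05 and 7.34 at 24 h and 4.17, 3.14 and 5.45 at 48 h, with every 48 h array but replicate 3 below all 24 h arrays (SE 0.20, adjusted p = 0.000775), and KLF10 and FOSL2 fell by 0.75 and 0.46. EGFR, the receptor for the EGF in the medium, did not pass (0.09, SE 0.13, adjusted p = 0.633), and its family had 1 rise and 1 fall in 10. Hydrocortisone was also in the medium throughout, and of 13 glucocorticoid targets 3 rose (background 9.23%) and 0 fell (limma; 1 lower at an unadjusted p under 0.05). TSC22D3, the glucocorticoid-induced leucine zipper GILZ, had 10.58, 10.43 and 9.41 at 24 h and 11.90, 11.10 and 10.51 at 48 h, a rise of 1.03 (SE 0.18, adjusted p = 0.00577). MAOA, monoamine oxidase A, rose by 0.89 (SE 0.12, adjusted p = 0.00157).

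Of 14 genes of the circadian clock 6 rose (background 9.23%), 0 fell (limma; 0 lower at an unadjusted p under 0.05) and 8 did not pass, at labelled times 24 h apart. DBP, a transcription factor driven by the core clock, had 5.40, 4.58 and 4.63 at 24 h and 6.75, 6.07 and 5.66 at 48 h, a rise of 1.29 (SE 0.15, adjusted p = 0.00123). HLF, of the same family, rose by 0.93 (SE 0.15, adjusted p = 0.0043) and BHLHE41, a repressor in the loop, by 0.74 (SE 0.10, adjusted p = 0.00188). The 3 genes did not overlap between the times. The list median was 0.31, and the rises numbered 3 without vehicle 24 h replicate 1 or 2 or vehicle 48 h replicate 1 or 2, and 4 to 7 without any other single array, and 1 without the replicate term. The hour of harvest is not in the labels.

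Of 32 lysosome and autophagy genes 9 rose (background 9.23%) and 23 did not pass, with 0 called lower (limma; 0 lower at an unadjusted p under 0.05) and a median of 0.14. ASAH1, acid ceramidase, had 12.13, 12.18 and 11.76 at 24 h and 12.75, 12.77 and 12.38 at 48 h, a rise of 0.61 (SE 0.06, adjusted p = 0.000807). ATP6V1A, a catalytic subunit of the proton pump that acidifies lysosomes, rose by 0.59 (SE 0.08, adjusted p = 0.0016), the peptidase TPP1 by 0.52 and the sialidase NEU1 by 0.45. The count was 6 to 10 in the fits that left out 1 of the 12 arrays, and 2 without the replicate term.

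Stress programmes differed in their calls, against a background of 22.5%. Of 26 ATF4 and amino acid response genes 25 had a positive change and the median was 0.36, but 3 passed; SLC38A2, a glutamine transporter induced by amino acid shortage, rose by 0.38 (SE 0.07, adjusted p = 0.00511). None of 21 endoplasmic reticulum chaperone genes passed with limma, where 0 were lower and 0 higher at an unadjusted p under 0.05. Over all genes 3862 of 10665 had such a p-value. Yet the 24 h and 48 h vehicle arrays did not overlap in 8 of the 21, against 26.4% of all genes. The SE of these genes also holds the spread of the Kbr arrays, so the absence of calls does not show that they were unchanged. Of 13 heat shock chaperones 3 fell, and 0 without vehicle 24 h replicate 3, 1 without vehicle 24 h replicate 2 or vehicle 48 h replicate 2, 6 without Kbr 48 h replicate 3, and 2 to 3 without any other single array. Without Kbr 48 h replicate 3, 3 of the endoplasmic reticulum chaperones rose and 1 fell. Rises on the ATF4 list numbered 1 without vehicle 24 h replicate 1 or 2 or vehicle 48 h replicate 1, 8 without Kbr 48 h replicate 3, and 2 to 3 without any other single array. Of 7 metallothioneins, zinc-binding proteins that cross-hybridise because of their near-identical sequences, 6 fell, with a median of -0.26. MT1M had 10.04, 9.37 and 10.08 at 24 h and 9.44, 9.05 and 9.46 at 48 h, a fall of 0.51 (SE 0.10, adjusted p = 0.00797). Their falls numbered 3 without vehicle 24 h replicate 1 or 2 or vehicle 48 h replicate 2, and 4 to 6 without any other single array, and 0 without the replicate term, where 4 had an unadjusted p under 0.05. The 24 NRF2 targets, genes of the oxidant defence, split into 2 rises and 5 falls, and NQO1, the quinone reductase, had 11.28, 11.35 and 11.22 at 24 h and 10.59, 10.74 and 10.88 at 48 h (-0.55, SE 0.13, adjusted p = 0.0165). Rises of NRF2 targets numbered 0 or 1 whichever vehicle array was left out, and falls 0 without vehicle 24 h replicate 1 or vehicle 48 h replicate 2, 1 without vehicle 48 h replicate 1, 2 without vehicle 24 h replicate 2 or 3, and 4 to 6 without any other single array; both were 0 without the replicate term (1 and 5 at an unadjusted p under 0.05). GPX3, the secreted selenium peroxidase made by the proximal tubule, rose by 1.22 (SE 0.10, adjusted p = 0.000397), and SELENOM, a selenoprotein of the endoplasmic reticulum, fell by 0.56. NQO1 missed the threshold without vehicle 24 h replicate 1, 2 or 3 or vehicle 48 h replicate 1 or 2 (adjusted p 0.0509 to 0.0677).

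Lipid and mitochondrial lists held up to 5 calls each, to be read against the 22.5% called over all genes. Of 37 subunits of oxidative phosphorylation 2 rose and 3 fell, with a median of -0.02 that changed sign with the scaling of the arrays. Of 17 sterol genes 3 rose and 2 fell, and of 11 fatty acid synthesis genes 3 rose, among them ACSS2, which makes acetyl-CoA from acetate (0.57, SE 0.12, adjusted p = 0.0105). Whichever vehicle array was left out, the sterol rises numbered 0 or 1, and the sterol falls 0 or 1 except without 48 h replicate 3, where they numbered 2; without the replicate term both were 0 (3 and 1 at an unadjusted p under 0.05). Rises in fatty acid synthesis numbered 1 without vehicle 24 h replicate 3 or vehicle 48 h replicate 3, and 2 to 3 without any other single array. The calls on the oxidative phosphorylation list also fell to 0 or 1 in each direction whichever vehicle array was left out. ALOX5, the lipoxygenase that starts leukotriene synthesis, had 4.10, 4.38 and 4.85 at 24 h and 5.29, 5.86 and 6.35 at 48 h, a rise of 1.39 (SE 0.18, adjusted p = 0.00158). In the hypoxia-response list 4 of 19 rose and 2 fell: P4HA2, a collagen prolyl hydroxylase, fell by 0.70 and BNIP3, a mitophagy receptor, rose by 0.43. The rises numbered 2 without vehicle 24 h replicate 3, and 3 to 5 without any other single array, and 0 without the replicate term, where 4 had an unadjusted p under 0.05.

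Inflammatory genes divided. Of 17 cytokines and NF-kB targets 3 rose and 6 fell (background 9.23% and 13.3%). The falls numbered 1 to 3 whichever vehicle array was left out, and 0 without the replicate term, where 4 had an unadjusted p under 0.05. The rises numbered 1 without vehicle 24 h replicate 1 or 3 or vehicle 48 h replicate 1 or 2, and 2 to 3 without any other single array, and 1 without the replicate term. IL1B, interleukin 1 beta, had 4.07, 4.10 and 3.77 at 24 h and 5.24, 6.94 and 5.15 at 48 h, a rise of 1.80 (SE 0.29, adjusted p = 0.00408) from levels at the floor. IL32, a proinflammatory cytokine, fell by 0.94 (SE 0.09, adjusted p = 0.000775). The chemokine CCL2 had 5.75, 7.14 and 5.72 at 24 h and 6.87, 8.49 and 7.01 at 48 h (1.25, SE 0.34, adjusted p = 0.0285). CFB, complement factor B, rose by 1.23 (SE 0.21, adjusted p = 0.00442), and CD55, which shields cells from complement, by 0.43. Of 26 interferon response genes 1 rose and 3 fell, OAS3, an antiviral enzyme, by 0.59. Tubular injury markers did not rise together: of 15, CLU (clusterin, 0.85) rose, and 4 fell, among them SOX9, a transcription factor of regenerating tubules, with 8.27, 7.81 and 8.16 at 24 h and 7.22, 6.76 and 6.35 at 48 h (-1.31, SE 0.24, adjusted p = 0.00688). HAVCR1, the injury marker KIM-1, was at 11.38, 11.58 and 11.40 at 24 h and 11.30, 11.48 and 11.53 at 48 h, with a change of -0.01 that did not pass (SE 0.10, adjusted p = 0.94) and turned sign when quantile normalisation was repeated. Of 11 BCL2 family genes 1 rose and 3 fell, with a median of -0.06. BAK1, a death effector, fell by 0.52 (SE 0.10, adjusted p = 0.00645), BCL2L1 by 0.52 and PMAIP1 by 0.37, and MCL1 rose by 0.27. Whichever vehicle array was left out, the family's rises numbered 0 to 2 and its falls 1 to 3. Both were 0 without the replicate term. CCL2 missed the threshold without vehicle 24 h replicate 1 or 3 or vehicle 48 h replicate 1 or 2 (adjusted p 0.0723 to 0.121).

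The same time step was measured in Kbr-treated cells. In Kbr cells 1519 genes rose (14.2%) and 1754 fell (16.4%) from 24 to 48 h. The 2 time steps share no array, though they share the replicate block and the fit. Of the vehicle calls, 986 passed in the same direction with Kbr, which is 41% of the vehicle calls and 30.1% of the 3273 Kbr calls, and 83 passed in opposite directions. TXNIP, TAGLN and MMP1 fell in both, with changes of -3.31, -2.31 and -3.12 with vehicle and -3.95, -2.67 and -3.63 with Kbr. These sizes are not compared, since the 48 h means with Kbr (3.45, 3.05 and 3.54) and that of TAGLN with vehicle (3.42) lay below the floor. KRT20 and TSC22D3 rose in both, by 1.57 and 1.03 with vehicle and 1.40 and 1.00 with Kbr. Mitosis genes had medians of -0.63 and -0.37, with 24 of 35 called lower with Kbr and a difference between the time steps called in 3. The ATF4 list had medians of 0.36 and 1.22, and the endoplasmic reticulum chaperones -0.11 and 0.97.

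**Figure D4:**
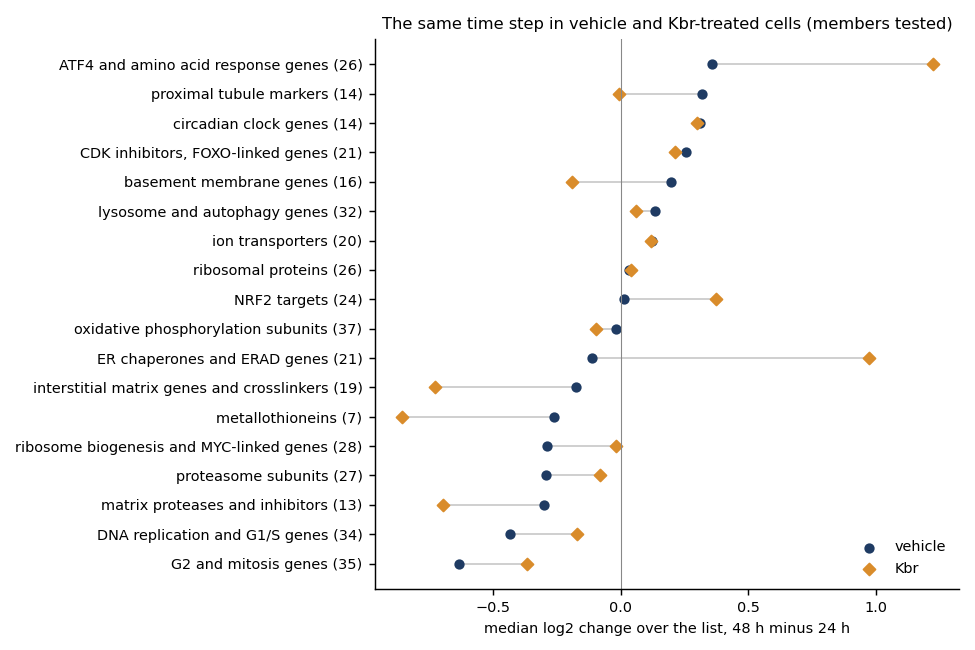
Median log2 change from 24 to 48 h (horizontal axis) of 18 gene lists in vehicle cells (circles) and Kbr-treated cells (diamonds), with the number of tested members in brackets; 3 arrays in each of the 4 groups. The clock list has medians of 0.31 and 0.30, the mitosis list -0.63 and -0.37, and the ATF4 list 0.36 and 1.22.

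The test of the difference itself, the vehicle time change minus the Kbr time change, passed in 785 genes (7.36%), 421 with the higher change in vehicle (3.95%) and 364 with the lower (3.41%). It is the least stable count here: 15 passed without the replicate term, and fits without 1 array gave 95 (vehicle 24 h replicate 3) to 2499 (Kbr 48 h replicate 3). Without replicates 1, 2 and 3 in turn it was 364, 213 and 95 for the vehicle 24 h arrays, 225, 216 and 560 for the vehicle 48 h arrays, 284, 143 and 174 for the Kbr 24 h arrays and 265, 132 and 2499 for the Kbr 48 h arrays. BLNK rose in vehicle cells and had 2.89, 2.94 and 2.93 at 24 h and 3.27, 3.88 and 3.08 at 48 h with Kbr. COL4A4 had 3.06, 3.09 and 3.08 at 24 h and 3.11, 3.05 and 2.98 at 48 h with Kbr. All 6 Kbr values of both genes, and those of ALOX5, lay below the floor of 4, so the sizes of their differences rest on background values. MUC1 and CFB rose with vehicle and changed by -0.43 and -0.62 with Kbr, differences of 1.32 and 1.85 (adjusted p = 0.00942 and 0.0144). MCM10 fell with vehicle and changed by -0.18 with Kbr, a difference of -1.24 (adjusted p = 0.0234). INHBE rose in both, by 2.31 and 4.39, and its difference was -2.08 (adjusted p = 0.0454). All 7 metallothioneins fell with Kbr, and a difference was called in each, with medians of -0.26 and -0.86; each kept that call in 6 to 12 of the 12 fits without 1 array. The difference of MCM10 missed the threshold without vehicle 24 h replicate 1, 2 or 3, vehicle 48 h replicate 1 or 2, Kbr 24 h replicate 2 or 3 or Kbr 48 h replicate 1 or 2 (adjusted p up to 0.0704). The difference of INHBE missed the threshold without vehicle 24 h replicate 2 or 3, vehicle 48 h replicate 1, 2 or 3, Kbr 24 h replicate 1, 2 or 3 or Kbr 48 h replicate 1 or 2 (adjusted p up to 0.117).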

How the data were processed

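RNA of 12 HK-2 cultures (3 per group) was hybridised to 12 Affymetrix arrays. The authors deposited log2 values of 54675 probe sets, normalised with GCRMA per the submitters' processing notes, whose version and settings were not stated. Precision rests on 3 arrays a group.

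Of the probe sets, 41091 named 1 gene symbol, 1801 several, 11721 none and 62 were array controls; 41037 matched RefSeq by gene ID. Of the probe sets of a symbol, that with the highest mean over 12 arrays was kept (19775 symbols), and genes above 4 in at least 3 arrays were tested (10665). limma 3.58.1 in R 4.3.3 fitted 4 group means with the replicate number as a block, and p-values were adjusted by the Benjamini-Hochberg method over all tested genes. The block was kept because the numbers pair the samples in the data, with correlations of deviations of 0.279 to 0.701 in all 18 same-numbered pairs (0.531 to 0.605 in vehicle cells). The 36 others had -0.454 to -0.0613, where negative values follow from deviations that sum to 0 within a group. The labels do not say what a number shares. The fit was tested on simulated data. These were drawn from the fitted model itself, with its block shifts and spread. The simulation therefore cannot show whether the block or the shared spread is right for these arrays.

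The members and the 51 gene lists were chosen with earlier results of these data known. Named genes were the 15 largest called changes each way with 1 sign in all pairs, up to 4 called members of each list each way by p, the 5 largest differences each way from the Kbr time step, and 14 genes whatever their values. Alternatives were no block, other filters, scalings, probe set rules and variance models, the vehicle arrays alone, and each array left out.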

Additional observations from a re-analysis of the deposited data

Results flagged for a closer look

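For 51 of the named genes the time change in vehicle cells differed from that in Kbr-treated cells at an adjusted p under 0.05 (limma, test of the difference; 7.36% of all tested genes). Of these calls, 16 held in all 12 fits that left out 1 array and 6 held without the replicate term. The values below are vehicle log2 change minus Kbr log2 change. For COL4A4, BLNK, ALOX5, MOB3B, IL1B, CLIP4 and SEPTIN7P13 at least 1 group mean lay below the floor of 4, so the sizes of their differences rest in part on background values.

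Genes called higher in vehicle cells and not called higher with Kbr were BLNK (3.12), FXYD6 (2.06), CCL2 (2.06), COL4A4 (2.05), IL1B (1.88), CFB (1.85), MOB3B (1.83), IFI44L (1.82), ALOX5 (1.80), SLC44A5 (1.43), HLF (1.34), MUC1 (1.32), DBP (1.10), MAOA (0.91), WFDC2 (0.86), SLC4A4 (0.81), ENPEP (0.77), TPP1 (0.71), MCL1 (0.48) and PKP4 (0.41). Some of them, such as DBP, still had a positive change with Kbr that did not pass.
Genes that fell in vehicle cells, with a lower change under Kbr, were MT1M (1.39), MT1G (0.59), MT2A (0.56) and MT1X (0.52).
Other genes with the higher change in vehicle cells were EFEMP1 (2.58), COPZ2 (2.10), TFCP2L1 (1.10), GPX3 (0.88), FXYD2 (0.56) and CLU (0.55).

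Genes called lower in vehicle cells and not called lower with Kbr were RGS20 (-2.14), HBEGF (-1.58), NQO1 (-1.44), MCM10 (-1.24), SLC2A1 (-0.98), PMAIP1 (-0.86), PLK2 (-0.79), BYSL (-0.74), GCLM (-0.73), LYAR (-0.66), FOSL2 (-0.63), ORC6 (-0.56), TIGAR (-0.55) and PSMD2 (-0.37). MCM10, for 1, still had a negative change with Kbr that did not pass.
Genes that rose in vehicle cells, with a higher change under Kbr, were INHBE (-2.08) and GDF15 (-1.41).
Other genes with the lower change in vehicle cells were CLIP4 (-2.59), SEPTIN7P13 (-2.21), CTH (-2.08), CCN2 (-1.11) and CDC25A (-0.53).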

How the results depend on the processing

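For vehicle cells the 2404 calls (984 up, 1420 down) became 351 (151 up, 200 down) without the replicate block, 3633 with every probe set counted by itself (1536 up), and 1265 to 2949 without 1 array (509 to 1240 up, 750 to 1709 down). For Kbr-treated cells the 3273 calls became 1135 (597 up, 538 down) without the block, 4942 by probe set (2357 up), 6086 with array weights (3077 up, 3009 down) and 1795 to 3995 without 1 array (763 to 1953 up, 1032 to 2042 down). For the difference the 785 calls became 15 (8 up, 7 down) without the block, 492 without a filter (255 up, 237 down), 1276 with trend and robust variance (661 down), 3703 with array weights (1637 up, 2066 down) and 95 to 2499 without 1 array (72 to 1119 up, 23 to 1380 down). The weights' estimation stopped before it converged, so those counts describe an unsettled fit; the cause of the other moves was not tested.

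Of 200 named vehicle calls 112 held in all 12 fits without 1 array and 52 without the replicate block, 159 without the filter, 170 with the vehicle arrays alone and 167 of 192 with the mean of probe sets. In that last setting SKIL (-0.019), TKT (-0.014) and the uncalled EFEMP1 (-0.18) reversed, and other probe sets had the sign of the call in 1769 of 2044 cases (86.5%). Repeated quantile normalisation and median subtraction shifted the median change by 0.0149 and -0.0133. Genes near 0 reversed: SEPTIN7P13 (-0.013 median-subtracted, -0.01995 quantile), CLIP4 (0.10 with array weights), CLDN2 (-0.0091 median-subtracted, -0.055 with weights) and HAVCR1 (0.013 quantile). Without 1 array their changes ran from -0.102 to 0.212 (EFEMP1), -0.321 to 0.253 (CLIP4), -0.133 to 0.213 (SEPTIN7P13), -0.137 to 0.144 (CLDN2) and -0.118 to 0.059 (HAVCR1).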

Other observations

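Further genes among the largest vehicle changes were not described above. ROBO2, a receptor for Slit guidance proteins, rose by 1.65 (SE 0.22, adjusted p = 0.00167), PLA1A, a phospholipase that acts on phosphatidylserine, by 1.73, PAIP2B, an inhibitor of translation, by 1.55 and MACROD1, which removes ADP-ribose from proteins, by 1.53. TM4SF4, a membrane protein of the tetraspan family, had 6.78, 6.88 and 6.59 at 24 h and 3.91, 4.92 and 4.86 at 48 h, a change of -2.18 (SE 0.22, adjusted p = 0.000798) without overlap between the times. LINC00973, a long noncoding RNA, fell by 2.28, and ZBED2, a zinc finger protein, by 1.65.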
